A study of Mus musculus with 12 samples.

Results

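Primary mouse hepatocytes labelled Hnf4a KO were set against hepatocytes labelled WT, with both genotypes given DMSO vehicle. The comparison takes 6 of the 12 libraries of the study, 3 for each genotype, chosen by their genotype and treatment labels alone. The other 6 libraries hold the same genotypes treated with MJ041, for which the labels give a code name and no structure. The study concerns HNF4A dysfunction in sepsis and a candidate ligand of the receptor. The labels give liver as the tissue and primary hepatocyte as the cell type. Strain, age, the deleted exons, the promoter of any recombinase, the time in culture and whether replicates came from separate animals are not given in the sources used here. The p-values of single genes therefore rest on the spread between replicate libraries, pooled over all 12 and so including those treated with MJ041. This spread may be technical. Gene expression is described across all 14919 genes that passed a filter on low counts.

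HNF4A is a nuclear receptor that sits on DNA as a homodimer, on paired half-sites spaced by a short gap. In the adult liver it works beside the FOXA and ONECUT factors and C/EBPα. It is best known for keeping on the genes of clotting factors, apolipoproteins, bile acid synthesis and drug metabolism, and its loss is known to release hepatocytes into the cell cycle.

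The 6 libraries held 16813450 to 17902832 counts. The first principal component carried 82.6% of their variance and placed the WT libraries between -60.6 and -52.6 and the KO libraries between 55.3 and 58.3. Hnf4a stood at 121, 137 and 112 CPM (counts scaled by TMM to a common library size of 1e6) in WT libraries and at 61.1, 67.8 and 66.4 CPM in KO libraries. The KO libraries were thus the lower ones, without overlap and without being near 0 (log2 fold change -0.92 ± 0.10, SE). Reads from exons that were not deleted would still be counted, so this transcript level does not check the deletion itself. Markers of Kupffer, endothelial, stellate and blood cells together took 0.0977%, 0.0811% and 0.145% of counts in WT libraries and 0.103%, 0.128% and 0.116% in KO libraries, and these ranges overlap (exact two-sided permutation p = 0.7; 3 against 3 libraries cannot go below 0.1). The T cell, B cell, neutrophil and erythrocyte markers Cd3e, Cd79a, S100a8 and Hba-a1 had too few counts to be tested. Of 21 lymphocyte, neutrophil, erythroid and mesothelial markers 3 were tested, of which 1 rose and 1 fell (0 rises with DESeq2). Together the 21 took 0.000587%, 0.000619% and 0.000799% of counts in WT libraries and 0.000245%, 0.000329% and 0.000353% in KO libraries, without overlap. In bulk RNA, fewer cells of a type and less RNA per cell cannot be told apart. The KO libraries also differed among themselves. On the second principal component, with 6.6% of the variance, KO replicates 1, 2 and 3 lay at 24.8, -23.2 and -3.06. WT replicates 1, 2 and 3 lay at 6.81, 9.88 and -15.2. H2-Q7 and Trim12a are given as examples, and the genes that differ among KO libraries were not counted. H2-Q7, a class Ib histocompatibility gene, stood at 41.9, 0.756 and 23.9 CPM in KO replicates 1, 2 and 3 and between 1.05 and 1.43 CPM in WT. Trim12a, named after its values were seen, stood at 20.2, 0 and 8.98 CPM in the same KO libraries and at 0 in WT. Both genes were thus highest in KO replicate 1 and lowest among KO libraries in replicate 2. Both calls were lost without KO replicate 1 and with limma voom (adjusted p = 0.36 and 0.32), and that of H2-Q7 also without WT replicate 3.

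Loss of Hnf4a went with changes in most expressed genes, most of them smaller than 2-fold, and the changes ran both ways. At an adjusted p below 0.05 (edgeR quasi-likelihood test), 54.5% of tested genes were called, 27.5% as higher and 26.9% as lower in KO. The counts of list members below are to be read beside these shares. Calls of at least 2-fold made up 9.03% of genes as higher (1347) and 6.15% as lower (918). The 3 KO and 3 WT libraries did not overlap for 63.1% of genes. The median over all tested genes was a log2 fold change of -0.00 and the median size was 0.36. Falls reached further than rises: 116 genes were at least 16-fold lower and 76 at least 16-fold higher, against 353 and 458 at 4-fold. Most abundant genes stayed abundant: 81 of the 100 highest genes of WT cells by CPM were also among the 100 highest of KO cells. Scaling to housekeeping genes instead of TMM moved the median of all genes to -0.19 and the calls to 2690 higher and 5949 lower. Rises below about the size of that shift thus depend on the scaling. With upper-quartile scaling the median was 0.044 and the calls were 4585 higher and 3612 lower. Small falls, the balance of calls and the median of all genes therefore depend on the scaling too.

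**Figure D1:**
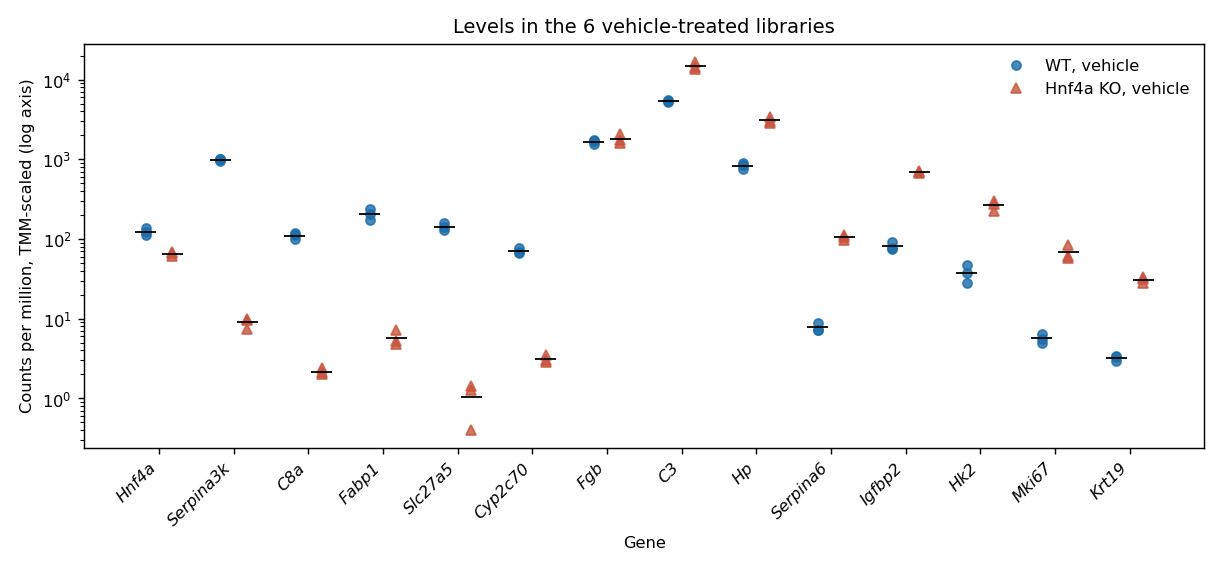
TMM-scaled CPM on a log axis for 14 genes, with a circle for each WT library, a triangle for each KO library and a line at each group mean. Serpina3k, C8a, Fabp1, Slc27a5 and Cyp2c70 lie over an order of magnitude lower in KO, Fgb overlaps between genotypes, and Serpina6, Igfbp2, Mki67 and Krt19 lie far higher in KO.

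Some of the strongest changes were in genes less often linked to hepatocyte function. Prg4, which encodes the lubricating proteoglycan lubricin, stood at 938, 635 and 823 CPM in WT and 12.3, 9.59 and 13.2 CPM in KO. Gstm3, a glutathione transferase, stood at 2.96, 3.34 and 3.98 CPM in WT and 154, 200 and 174 CPM in KO. In both genes the genotypes are separated by more than an order of magnitude. Ly6d, a surface protein of the Ly6 family, rose by 3.00 ± 0.16, and Dmpk, a kinase known from myotonic dystrophy, by 2.64 ± 0.15. Igdcc4, an immunoglobulin superfamily receptor, rose from 0.267 to 21.2 CPM. Dct, a melanin synthesis enzyme, was read 173 times in WT and 0 times in KO, at least 57.6-fold lower when 3 counts per genotype are taken as the limit of a count of 0. Pnliprp1, a pancreatic lipase-related gene, was read 0 times in WT and 1888 times in KO, at 36.5, 35.2 and 35.9 CPM, which is at least 629.8-fold higher by the same limit.

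The other hepatocyte transcription factors did not fall together. Among the 21 on the list, 10 were called higher and 8 lower; the median log2 fold change was 0.34, and -0.12 among those left by a minimum count of 50. Cebpa, which encodes C/EBPα, was at 102, 104 and 100.1 CPM in WT and 52.3, 63.4 and 53.03 CPM in KO, without overlap. It fell by 0.86 and Creb3l3, a membrane-bound factor of fasting lipid metabolism, by 1.66 on the log2 scale. Foxa2 rose (0.47 ± 0.11), and so did Onecut2 (1.38 ± 0.11), which was at 72.4, 91.9 and 99.4 CPM in WT and 196, 243 and 245 CPM in KO. The xenobiotic receptors parted ways. Nr1i3, which encodes the receptor CAR, fell from 3.68 to 0.190 CPM, while Nr1i2, which encodes PXR, rose from 6.38 to 14.1 CPM (1.14 ± 0.14). The bile acid receptor gene Nr1h4 rose (0.89 ± 0.11) and Ppara, the receptor that drives fatty acid oxidation, fell (-0.86 ± 0.21). Among clock genes, the repressors Nr1d1 (-2.15 ± 0.23) and Nr1d2 (-1.02 ± 0.09) fell, and the activators Arntl (0.99 ± 0.12) and Npas2 (1.87 ± 0.22) rose. Nr1d1 stood at 59.5, 79.8 and 102 CPM in WT and 15.9, 18.5 and 20.1 CPM in KO. Receptors of liver growth signals also moved, with falls of Met (-0.56 ± 0.08), Egfr (-0.49 ± 0.07) and Lifr (-1.10 ± 0.07) and a rise of Fgfr1 (1.33 ± 0.11).

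Clotting genes moved both ways, as did all tested genes (26.9% lower and 27.5% higher). Among 14 procoagulant genes 6 fell and 2 rose, and the median, -0.31, was -0.15 without KO replicate 1 and -0.50 without KO replicate 2. Of 18 anticoagulant and fibrinolytic genes 4 fell and 8 rose, and the median, 0.31, was 0.11 without KO replicate 2. Factor XII (F12), the starter of the contact route, stood at 177, 189 and 179 CPM in WT and 5.83, 5.29 and 5.24 CPM in KO. It was thus lower in KO by more than an order of magnitude (-5.05 ± 0.09). F13b, the carrier subunit of the fibrin-crosslinking factor XIII, fell by 4.94, and the plasma kallikrein gene Klkb1, named after its values were seen, by 1.13. Factor IX (F9) fell by 0.96 and factor XI (F11) by 0.77 on the log2 scale. Prothrombin (F2) was at 546, 599 and 562 CPM in WT and at 690, 772 and 744 CPM in KO, so it rose modestly (0.37 ± 0.08). The fibrinogen chain gene Fgb stood at 1568, 1723 and 1705 CPM in WT and 1617, 2069 and 1742 CPM in KO. These libraries overlap, and none of the 3 fibrinogen chain genes was called. Hrg, which encodes the plasma histidine-rich glycoprotein, fell from 188 ± 12.9 to 4.59 ± 0.911 CPM (SD, n = 3), and Proz, the cofactor of factor Xa inhibition, fell by 4.91 on the log2 scale. On the other side, the antithrombin gene Serpinc1 (0.66 ± 0.09), the protein C gene Proc (0.92 ± 0.07) and the plasminogen activator gene Plat (2.52 ± 0.07) rose.

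The deepest falls among complement genes lay in the terminal pore and the lectin arm. Of 24 tested genes 10 fell and 9 rose. C8a, a chain of the C8 complex, stood at 101, 111 and 119 CPM in WT and 2.00, 2.38 and 2.12 CPM in KO. C8g, whose product joins the same complex, stood at 111, 102 and 106 CPM in WT and 2.17, 2.09 and 1.95 CPM in KO. The remaining chain, C8b, named after its values were seen, went the other way, from 61.1, 58.6 and 66.1 CPM to 74.4, 113 and 90.6 CPM. So 2 chains fell by 5.67 and 5.68 on the log2 scale while C8b rose by 0.58 ± 0.12. C9, which polymerises into the pore, fell by 5.19. The mannose-binding lectin gene Mbl2 (-3.74), the pore inhibitor gene Vtn (-3.18) and Cfi, the protease that inactivates C3b (-2.76), fell as well. C3 itself, the hub of all complement routes, was at 5454, 5510 and 5244 CPM in WT. In KO it was at 13461, 16459 and 14246 CPM, above every WT library (1.45 ± 0.10).

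Plasma carriers and protease inhibitors showed the same mixture. Of 29 constitutive plasma protein genes 14 fell and 11 rose (median -0.25). Transthyretin (Ttr), the thyroxine carrier, fell from 1816 ± 64.3 to 499 ± 32.3 CPM (SD, n = 3). Serpina6, which encodes the corticosteroid-binding globulin, rose from 7.22, 8.96 and 7.29 CPM to 111, 107 and 97.3 CPM. The vitamin D carrier gene Gc rose by 1.25 ± 0.13. The α1-antitrypsin copies Serpina1a and Serpina1b were lower (-5.84 ± 0.19 and -5.56 ± 0.24), while Serpina1c, named after its values were seen, had 763, 757 and 788 CPM in WT and 771, 737 and 718 CPM in KO. These copies are nearly identical in sequence, and how their shared reads were assigned is not given, so the split among them is uncertain. Their summed level fell from 3325 to 1373 CPM.

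Acute-phase genes, which the liver raises in inflammation, mostly fell. The list held 14 falls and 6 rises among 22 genes, and its median was -0.73 beside -0.00 for all genes. Their summed share of counts was higher in each KO library, at 1.31%, 1.24% and 1.19% against 0.941%, 0.905% and 0.782% in WT. Serpina3k, a kallikrein inhibitor, went from 1018, 944 and 1008 CPM to 9.88, 7.50 and 9.59 CPM, the largest fall of the list (-6.78 ± 0.12). Serum amyloid A1 (Saa1) fell by 1.42, the interleukin 6 receptor gene Il6ra by 0.77 and Stat3, the factor that relays its signal, by 0.44. Haptoglobin (Hp) ran against the list, with 911, 842 and 752 CPM in WT and 3364, 3038 and 2890 CPM in KO. The endotoxin-binding Lbp (1.32 ± 0.12) and the iron-trapping Lcn2 (0.83 ± 0.21) also rose. Orm1, an α1-acid glycoprotein gene, was not called (0.19 ± 0.08). In all, genes of plasma proteins and lipoproteins took 11.4%, 11.97% and 11.2% of counts in WT and 9.72%, 10.8% and 9.90% in KO. Their share was lower in each KO library (exact two-sided permutation p = 0.1, the smallest this design allows). Alb, which encodes albumin and is named after its values were seen, took 4.41%, 4.70% and 4.42% of counts in WT and 1.83%, 2.05% and 1.85% in KO. With Alb taken out of the list and of the total, the direction turned: the share was 7.29%, 7.63% and 7.11% in WT and 8.04%, 8.88% and 8.20% in KO.

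Lipoprotein genes fell on balance, with 14 falls and 5 rises among 24 (median -0.44). Apob, the scaffold of very low density lipoprotein, was at 2920, 3207 and 2444 CPM in WT and 1621, 1369 and 1431 CPM in KO. All KO libraries were below all WT libraries (-0.96 ± 0.12). Apoa4 fell by 3.36 and the hepatic lipase gene Lipc by 3.79, while Apoa1, the main protein of high density lipoprotein, rose (0.99 ± 0.13). Fabp1, the fatty acid carrier of liver cytosol, dropped from 171, 235 and 208 CPM to 7.31, 4.77 and 5.19 CPM. The fatty acid uptake gene Cd36 (1.34 ± 0.13) and the lipoprotein lipase gene Lpl (1.48 ± 0.14), both low in normal hepatocytes, rose.

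Large falls were found among genes of bile acid synthesis, conjugation and uptake. Slc27a5, the ligase that prepares bile acids for conjugation, stood at 129, 158 and 142 CPM in WT and at 1.43, 0.407 and 1.28 CPM in KO (-7.09 ± 0.21). Baat, which attaches taurine or glycine, fell by 2.32, and the 12α-hydroxylase gene Cyp8b1 by 2.89. Cyp7a1, the rate-limiting enzyme of the classic route, was low in WT already, at 0.455, 0.597 and 0.939 CPM, and fell to 0.0571, 0.233 and 0.0558 CPM. Of the 18 genes 8 fell and 8 rose, and Acox2, a peroxisomal oxidase that shortens the side chain, was the largest rise (1.56 ± 0.12). Sinusoidal uptake carriers fell in 9 of 16 cases and rose in 2. The bile acid carrier gene Slc10a1 went from 24.6, 28.2 and 31.4 CPM to 3.37, 3.72 and 3.12 CPM, and the organic anion carrier gene Slco1b2 fell by 3.00. Among 17 efflux pump genes 9 rose and 4 fell. The bile salt pump gene Abcb11 fell by 1.03, while the phospholipid flippase gene Abcb4 rose from 35.1, 59.3 and 53.2 CPM to 178, 220 and 215 CPM. The conjugate pump gene Abcc2 rose by 0.80 ± 0.13.

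Cytochrome P450 genes had the lowest median of the lists described here. There were 36 falls and 8 rises among 50 genes (5 rises without KO replicate 2), and the median was -2.70. Cyp3a11, the main drug-oxidising enzyme of mouse liver, stood at 842, 1010 and 935 CPM in WT and 108, 48.5 and 73.9 CPM in KO. Each KO library lay below each WT library (-3.59 ± 0.30). Cyp2e1 fell by 2.44 and Cyp2f2 by 5.16, whereas Cyp1a2 rose from 33.8 to 66.2 CPM (0.97 ± 0.11). Of the 13 tested Cyp2c genes 12 fell and 0 rose, and their summed level went from 967 ± 20.2 to 47.4 ± 4.79 CPM (SD, n = 3). How reads shared by close copies were assigned is not given. The sum does not depend on the split among these copies, but would miss shared reads that were dropped or counted elsewhere.

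Conjugating enzymes did not follow. Among 55 transferases and carboxylesterases 21 fell and 21 rose (median -0.03). Families went in opposite directions: 12 of 15 sulfotransferases fell and 1 rose, both tested Ces3 genes fell, and 6 of 7 Gstm genes rose with 0 falls. Sult1a1 fell by 3.45 and the glucuronosyltransferase gene Ugt2b1 by 6.42. Gstm2, a glutathione transferase, rose from 17.1, 20.8 and 18.3 CPM to 256, 310 and 270 CPM. Ces1c, a plasma carboxylesterase, was at 525, 576 and 578 CPM in WT and at 1851, 2207 and 2015 CPM in KO. The summed level of the 7 Gstm genes rose from 339 ± 42.5 to 1970 ± 181 CPM (SD, n = 3). Drug-metabolising genes as a whole took a larger share of counts in each KO library, 0.829%, 0.911% and 0.859%, than in each WT library, 0.708%, 0.770% and 0.771% (exact two-sided permutation p = 0.1).

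**Figure D2:**
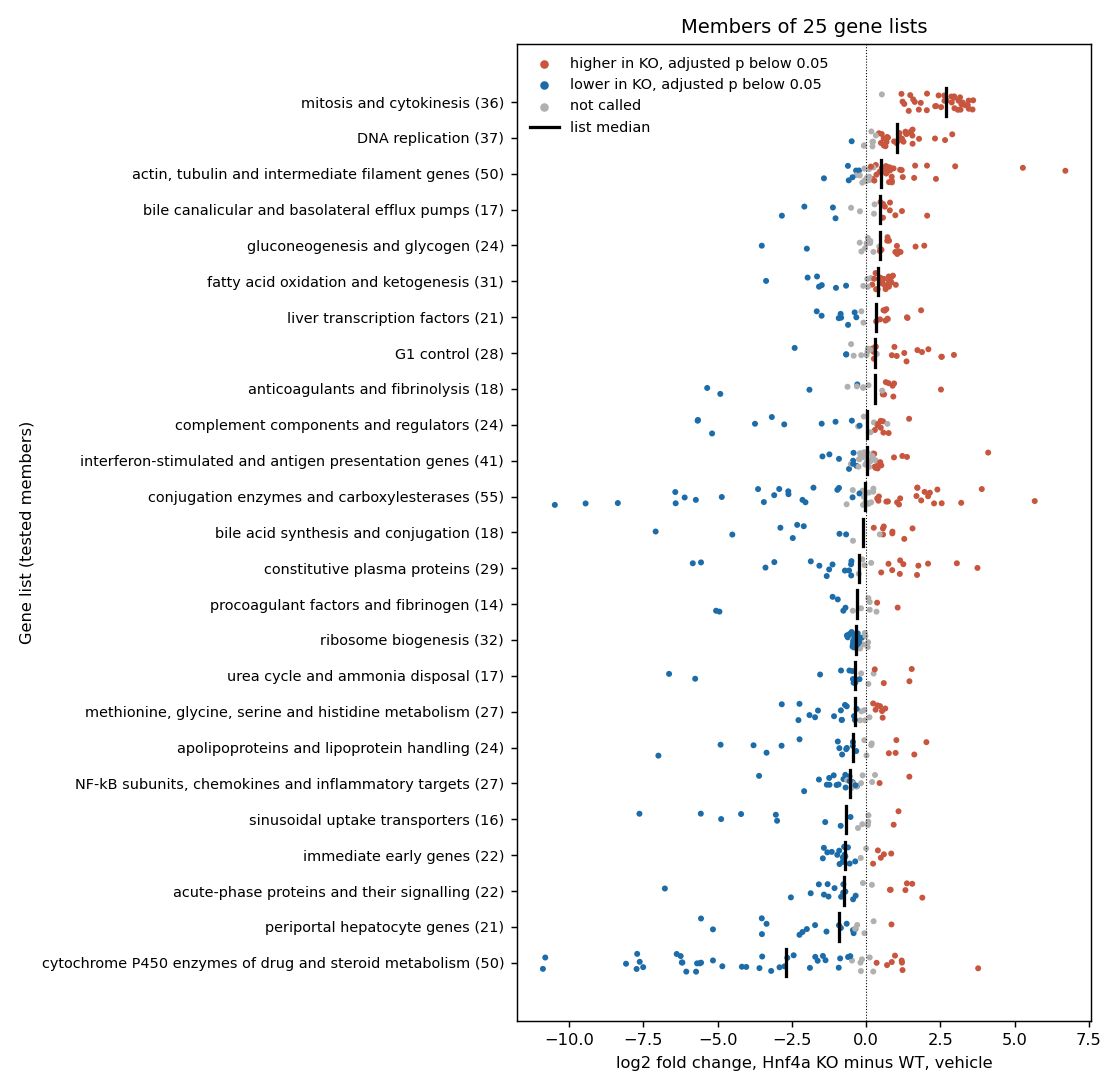
Log2 fold change of each tested member of 25 gene lists, KO minus WT with vehicle, ordered by list median (black bar) and coloured by call. Mitosis genes lie to the right as a block (median 2.67), P450 genes to the left (median -2.70), and conjugation, complement and plasma protein genes spread to both sides of 0.

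Promoter sequence was read to see whether letters known to be bound by HNF4A were more frequent near the genes that fell. The motif CAAAGTCCA, a common HNF4 site, was sought on both strands in the 250 bases before each RefSeq start (build GRCm38.p6). A window was found for 10822 of 14915 tested genes with a unique name (the symbol, or the Ensembl ID where none was found), and some genes have several. The stretches below are from the 4 named genes that fell and held the motif, with 35 bases on either side, 5′ to 3′ on the gene's strand, and the motif in capitals.
Cyp3a11, chr5:145879920-145879998, minus strand: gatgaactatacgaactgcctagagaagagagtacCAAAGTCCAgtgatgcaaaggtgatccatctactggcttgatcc
Cyp8b1, chr9:121916329-121916407, minus strand: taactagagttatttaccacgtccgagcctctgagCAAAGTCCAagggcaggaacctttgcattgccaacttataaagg
Cyp2c69, chr19:39886801-39886879, minus strand: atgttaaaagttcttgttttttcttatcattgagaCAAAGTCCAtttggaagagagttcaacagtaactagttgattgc
Cyp2c70, chr19:40187307-40187385, minus strand: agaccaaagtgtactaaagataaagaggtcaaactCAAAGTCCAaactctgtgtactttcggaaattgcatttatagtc

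In all 4 the motif lies on the gene's own strand. It begins 109 bases before the start of Cyp3a11, 67 before that of Cyp8b1, 75 before that of Cyp2c69 and 64 before that of Cyp2c70. The first is the P450 gene described above, Cyp8b1 is the 12α-hydroxylase of bile acid synthesis, and Cyp2c70 makes the muricholic acids of mouse bile. Cyp2c70 stood at 67.5, 68.7 and 76.9 CPM in WT and 2.86, 3.49 and 3.01 CPM in KO. Muc13, also a named gene, held the motif, on the opposite strand, and was not called (0.23). Among windows of genes at least 4-fold lower in KO, 15 of 307 (4.89%) held CAAAGTCCA. The share was 1 of 408 (0.245%) for genes at least 4-fold higher and 46 of 13112 (0.351%) for the rest, against 0.384% of all 32851 RefSeq windows of that length. The 15 windows belong to 14 genes, of which 4 are Cyp2c and 3 are Cyp3a copies with related promoters, so they are not independent.

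Other letters were counted in the same windows. CAAAGGTCA, a direct repeat 1 site shared by several nuclear receptors, stood in 1.63% of windows of the lower genes, 0.245% of the higher genes and 0.366% of the rest (0.426% of all windows). The AP-1 letters TGACTCA were more frequent in both changed classes, at 9.45% and 7.11% against 3.53% (4.46% of all). ACATTCC, of TEAD type, stood in 4.56%, 2.94% and 2.55% (3.25% of all), and TTTGGCGC or TTTCCCGC, of E2F type, in 0.977%, 1.72% and 2.32% (1.30% of all). The classes also differ in base composition, with a median of 3 CpG per window in the lower genes, 8 in the higher genes and 15 in the rest, and the part of this in the shares was not tested.

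**Figure D3:**
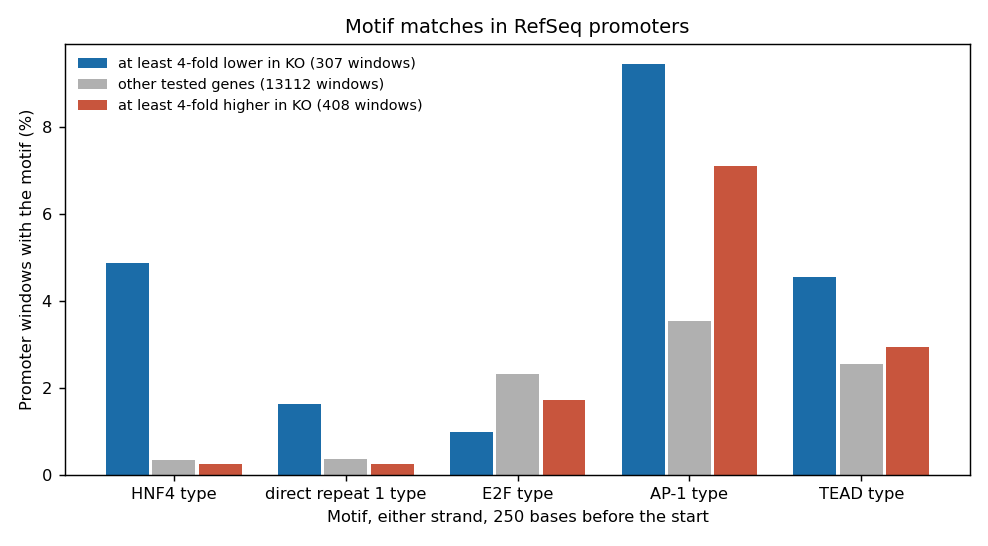
Percent of RefSeq promoter windows, 250 bases before the start, that hold each motif on either strand, for genes at least 4-fold lower in KO, the rest, and genes at least 4-fold higher. The HNF4-type bar is 4.89% for the lower genes and under 0.4% for the other classes.

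Transcripts of amino acid breakdown fell more often than they rose. In the urea cycle list 10 of 17 genes fell and 4 rose, in that of aromatic amino acids and tryptophan 12 of 21 fell and 6 rose, and in that of methionine, glycine and serine 15 of 27 fell and 7 rose. Cps1, the entry enzyme of the urea cycle, stood at 84.9, 112 and 120 CPM in WT and 104, 114 and 116 CPM in KO. It was not called, and nor was the last enzyme, Arg1. Otc, the enzyme that makes citrulline, dropped from 42.0, 42.6 and 43.1 CPM to 1.03, 0.523 and 0.781 CPM (-5.76 ± 0.17). Ass1 fell by 0.45 and Slc7a2, a carrier of cationic amino acids, by 1.55. Glud1, the glutamate dehydrogenase that releases ammonia, was higher in every KO library, with 1114, 1052 and 1068 CPM against 353, 384 and 379 CPM in WT. Tat, the tyrosine aminotransferase, fell by 1.72. Bhmt, which remethylates homocysteine with betaine, went from 251, 291 and 308 CPM to 53.2, 61.7 and 60.0 CPM.

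Hao1, which makes glyoxylate in the peroxisome, fell by 1.85 and Pipox, an oxidase of the same compartment, went from 37.7, 45.8 and 43.7 CPM to 7.20, 9.53 and 8.36 CPM. The kynureninase gene Kynu ran against the lists and rose by 1.27 ± 0.13.

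Transcripts of sugar metabolism shifted between enzymes. The glucose 6-phosphatase gene G6pc, which completes glucose release, fell from 2.33, 6.92 and 8.56 CPM to 0.571, 0.465 and 0.502 CPM. Pck1, of gluconeogenesis, fell by 2.00 ± 0.55 from WT libraries that ranged from 7.22 CPM in replicate 1 to 27.001 CPM in replicate 3. These were the 2 falls among 24 genes of gluconeogenesis and glycogen, of which 13 rose. The glycogen phosphorylase gene Pygl (1.16 ± 0.11) and the glycogen-targeting phosphatase subunits Ppp1r3b (1.66 ± 0.18) and Ppp1r3c (1.96 ± 0.21) were among the rises. Hexokinase 2 (Hk2), an isoform of muscle and tumours, stood at 37.6, 28.2 and 46.7 CPM in WT and 300, 225 and 276 CPM in KO. Gckr, the inhibitor of the hepatic glucokinase, rose from 29.6, 45.6 and 37.6 CPM to 320, 235 and 285 CPM. The liver pyruvate kinase gene Pklr fell (-0.73 ± 0.17) while the isoform gene Pkm rose (0.63 ± 0.09).

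Genes of fat burning moved both ways. Of 31 genes of fatty acid oxidation and ketogenesis 20 rose and 7 fell (median 0.39). The falls included the ω-hydroxylase genes Cyp4a14 (-1.97 ± 0.42) and Cyp4a10 (-1.65), the peroxisomal Ehhadh (-1.59 ± 0.26) and Acaa1b (-1.49), and the ketone body enzyme Bdh1 (-3.37 ± 0.32). Cpt1a, the gate of mitochondrial import, was at 33.4, 32.3 and 31.2 CPM in WT and 60.5, 47.9 and 54.1 CPM in KO. Acadm, a mitochondrial dehydrogenase, rose by 0.21 ± 0.06, and by 0.01 with the housekeeping scaling; its call was also lost without KO replicate 3 or WT replicates 1 or 3. Genes of fat synthesis moved little as a group, with 9 falls and 7 rises among 25. Fasn (-0.18), Acly (-0.07) and Scd1 (0.18) were not called, and Gpam, the first step of glycerolipid assembly, rose by 1.29 ± 0.14.

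Among 18 genes of growth hormone and insulin-like growth factor signalling 8 fell and 3 rose (all tested genes: 26.9% and 27.5%). Igfbp2, a carrier of insulin-like growth factors that is high in fetal liver, stood at 75.6, 92.4 and 77.0 CPM in WT and 667, 717 and 693 CPM in KO. Igf1 itself fell from 287, 277 and 257 CPM to 117, 98.6 and 110 CPM, and lower values were seen for the growth hormone receptor gene Ghr (-0.76 ± 0.06) and its feedback gene Cish (-2.04 ± 0.11). Socs2, also a feedback gene of this pathway, was not called (-0.08 ± 0.15). Among 24 iron genes 12 rose and 10 fell. Hamp, which encodes the iron hormone hepcidin, varied in WT, at 244, 477 and 134 CPM, and was at 1180, 1220 and 1064 CPM in KO. All KO libraries were above all WT libraries (2.02 ± 0.43). The iron gene listed as Hfe2 rose by 2.76 ± 0.26. The ferritin heavy chain gene Fth1 fell from 7489, 7370 and 7464 CPM to 1797, 2494 and 2097 CPM, and the haem oxygenase gene Hmox1 by 1.59.

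Liver zonation lists differed in their counts. Periportal genes held 16 falls among 21 and 1 rise, of the cadherin gene Cdh1 (0.85 ± 0.09), and their median was -0.92. Hsd17b13, a lipid droplet enzyme of that zone, fell by 0.92 on the log2 scale. Pericentral genes held 6 falls and 7 rises among 19, and their median was -0.06. Glul, the glutamine synthetase of the last cells before the central vein, was at 286, 279 and 400 CPM in WT and 177, 171 and 189 CPM in KO. The Wnt target Axin2 was not called (0.37). Several members of the periportal list, such as Serpina1b, Cyp2f2 and Apoa4, are also in the lists above.

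Genes of cell division rose almost as a block. Mitosis genes held 35 rises and 0 falls among 36, and their median was 2.67. The exception, Ccnb2, was named after its values were seen, and had 3.64, 4.30 and 4.58 CPM in WT and 4.06, 7.44 and 6.58 CPM in KO. Mki67, the proliferation marker, stood at 5.003, 6.45 and 5.58 CPM in WT and 58.3, 83.9 and 61.9 CPM in KO. Cdk1 (2.36 ± 0.23), Ccnb1 (2.96 ± 0.30) and Top2a (3.16 ± 0.25), which act from entry into mitosis to chromosome separation, rose alike. Replication genes held 29 rises and 1 fall among 37, and their median of 1.02 was smaller. Rrm2, of nucleotide supply, rose from 13.6, 17.7 and 14.03 CPM to 76.7, 115 and 94.3 CPM, and the helicase subunit Mcm5 by 1.32 ± 0.19. Pcna, the replication clamp, was not called (0.33 ± 0.15).

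The G1 regulators and growth genes did not rise in the same way. Among 28 G1 genes 17 rose and 3 fell, including rises of Ccne1 (1.28 ± 0.19) and E2f1 (1.88 ± 0.22) and of the inhibitor gene Cdkn1b (0.95 ± 0.09). Myc, which drives growth and ribosome production, stood at 312, 320 and 295 CPM in WT and lower, at 201, 196 and 186 CPM, in KO. Ribosome biogenesis genes held 26 falls and 0 rises among 32, of modest size (median -0.33). Tsr1, a maturation factor of the small subunit, fell by 0.65, and the nucleolin gene Ncl went from 1615, 1667 and 1678 CPM to 1291, 1403 and 1382 CPM. Npm1 and Fbl of the nucleolus were not called (-0.04 and -0.03). Cdkn1a, a p53 target that blocks the cycle, was not called either (-0.17), and p53 targets held 10 rises and 5 falls among 25 (8 falls without WT replicate 2). Genes of cell division took 0.265%, 0.269% and 0.273% of counts in WT libraries and 0.405%, 0.463% and 0.427% in KO libraries.

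Adhesion and matrix genes moved both ways, while cytoskeletal genes mostly rose, with 31 rises and 6 falls among 50. Cytoskeletal genes took 2.29%, 2.21% and 2.27% of counts in WT and 2.78%, 2.97% and 2.95% in KO. Actb, the cytoplasmic actin, rose from 2276, 2150 and 2324 CPM to 3606, 3917 and 3665 CPM. The YAP cofactor gene Wwtr1 fell from 127, 128 and 136 CPM to 69.6, 69.1 and 68.2 CPM, whereas Yap1 was not called (-0.04). In the list of the YAP pathway and its targets 10 of 24 genes fell and 6 rose (all tested genes: 26.9% and 27.5%). The targets Nt5e and Ptpn14 fell by 1.16 and 0.85, as did Fjx1, named after its values were seen (-2.14 ± 0.16). In contrast Ccn2 rose by 1.01 ± 0.11 and Ankrd1 by 0.97 ± 0.11, while Ccn1 was not called (0.04). Among 24 junction genes 10 fell and 7 rose. The claudin gene Cldn2 fell by 1.93 and the occludin gene Ocln by 1.19, and the junction plaque gene Cgn rose by 1.27 ± 0.10. Fibronectin (Fn1) stood at 896, 1115 and 940 CPM in WT and 2234, 3043 and 2712 CPM in KO. The basement membrane genes Hspg2 (2.38 ± 0.14) and Lamb2 (2.95 ± 0.21) and the crosslinking enzyme gene Loxl2 (2.82 ± 0.15) rose too. Dcn and Col3a1, which stellate cells and fibroblasts make, fell by 1.38 ± 0.45 and 1.29, beside a fall of the stellate marker Pdgfrb (-1.53 ± 0.51). The call of Col3a1 was lost on leaving out any 1 library, that of Dcn without KO replicates 1 or 3 or WT replicates 1 or 3 (-1.38 to -1.21), and that of Pdgfrb without KO replicate 1 (-1.29). Stellate markers as a list had 4 rises and 3 falls among 14 (0 falls without KO replicate 1), and took 0.0160% to 0.0200% of counts in WT and 0.0170% to 0.0223% in KO. Their part in the matrix values was not tested.

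Inflammatory and immediate early genes were lower in KO cells. Of 27 NF-kB subunits, chemokines and targets 17 fell and 2 rose (median -0.56). Cxcl2, a neutrophil attractant, stood at 117, 89.2 and 133 CPM in WT and 7.37, 11.6 and 8.87 CPM in KO. Its KO libraries were far below the WT libraries (-3.61 ± 0.30), and Cxcl1 fell by 1.00 ± 0.27, while Ccl2 overlapped between genotypes (0.20 ± 0.27). Of 22 immediate early genes 15 fell and 5 rose (3 rises without KO replicate 3 or WT replicate 2), with falls of Klf6 (-1.16 ± 0.09), Jun (-0.79 ± 0.10) and Egr1 (-0.74 ± 0.15), and a rise of Fos (0.60 ± 0.23). The call of Fos was lost on leaving out any library except WT replicate 3. Of 26 genes that sense endotoxin and cytokines 10 fell and 6 rose (all tested genes: 26.9% and 27.5%). Only 3 rises were left without KO replicate 1, KO replicate 3 or WT replicate 2. Cd14, the endotoxin coreceptor, went from 299, 306 and 334 CPM to 124, 95.3 and 110 CPM, and Ly96, its partner on the TLR4 complex, fell by 1.09 ± 0.14. Tlr4 itself was not called (0.09 ± 0.35), and the interferon-γ receptor gene Ifngr1 rose from 52.4, 56.1 and 47.2 CPM to 245, 238 and 230 CPM. Interferon-stimulated genes showed no common direction, with 11 rises and 8 falls among 41. The counts were 6 and 17 without WT replicate 2, and 6 and 19 with the housekeeping scaling.

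Because macrophages also express many of these genes, their markers are given beside them. Of 19 tested Kupffer cell markers 2 rose and 1 fell, and their summed share was 0.0402%, 0.0310% and 0.0687% in WT and 0.0544%, 0.0589% and 0.0546% in KO. The defining markers Clec4f (0.33 ± 0.66), Adgre1 (-0.32 ± 0.56) and Ptprc (-0.53 ± 0.42) were not called. WT replicate 3 was the highest library for this list and for Cxcl2, Cd14 and Jun. Their part in the inflammatory values was not tested.

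Markers of bile ducts and of fetal liver rose more often than they fell. Of 17 tested cholangiocyte and progenitor genes 9 rose, 7 of them at least 2-fold, and 2 fell (median 0.79). Krt19, a keratin of duct cells, stood at 2.96, 3.28 and 3.37 CPM in WT and 28.1, 31.3 and 33.7 CPM in KO (3.27 ± 0.13). In contrast Sox9, the duct factor, went from 41.7, 43.5 and 54.4 CPM to 23.4, 29.5 and 31.3 CPM, and Krt7 had only 11 counts in WT and 9 in KO. Epcam (-0.79) and Spp1 (-0.57 ± 0.40) were not called. Pkhd1, a gene of the primary cilium and duct, rose by 1.48 ± 0.16. Their summed share of counts overlapped between genotypes, at 0.0773%, 0.0530% and 0.0676% in WT and 0.0648%, 0.0761% and 0.0683% in KO. Of 19 fetal liver genes 9 rose, 8 of them at least 2-fold, and 6 fell. Cd24a, a surface protein of progenitor cells, rose by 2.47 ± 0.29. Dlk1, a fetal hepatoblast marker named after its values were seen, had 0 counts in WT and 122 in KO. Afp, the fetal albumin relative, fell from 13.6, 10.7 and 12.04 CPM to 5.43, 7.21 and 5.97 CPM. The imprinted RNA H19 had 0 counts in WT and 31 in KO, and the fetal proteoglycan gene Gpc3 had 5 and 8.

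The same genotypes were also compared under MJ041, in libraries that share none with the vehicle comparison. The labels do not say whether cells of a replicate number came from the same source. Deviations of same-numbered vehicle and MJ041 libraries correlated at -0.010, 0.20 and 0.50 in WT and at 0.35, 0.46 and 0.039 in KO. Differently numbered ones ranged from -0.53 to 0.45. Both contrasts also took their spread from the same fit of 12 libraries, so they are not fully independent. With MJ041, 26.8% of genes were called higher and 27.6% lower in KO. Of the genes higher in KO with vehicle, 78.8% were also higher with MJ041, which is 80.9% of the MJ041 list, and of the lower ones 81.7%, which is 79.8% of that list. Over all tested genes the fold changes correlated with Pearson's r = 0.90, across genes, which are not independent replicates. The genes at least 2-fold higher with vehicle had a median of 1.61 there and 1.54 with MJ041, and those at least 2-fold lower had -1.68 and -1.56; both sets were chosen on the vehicle values. The difference between the contrasts itself was called for 0% of genes by edgeR (0 genes; 1980 at an unadjusted p below 0.05). DESeq2 called 214 genes and limma voom 0. Only 20 genes were called in opposite directions, 10 each way.

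NF-kB genes, with 17 falls and 2 rises under vehicle, had 7 falls and 6 rises under MJ041 (median 0.13). Interferon-stimulated genes, with 8 falls and 11 rises under vehicle, had 2 falls and 27 rises under MJ041 (median 0.50). Cxcl1, for example, had a log2 fold change of -0.995 with vehicle and -0.18 with MJ041, and Oas2, an antiviral RNA sensor gene, had 1.38 and 2.91. Other lists differed between the treatments too. Fat synthesis genes, with 9 falls and 7 rises under vehicle, had 16 falls and 3 rises under MJ041. Cholesterol synthesis genes went from 6 falls and 6 rises to 13 falls and 0 rises. Adult liver isozymes of sugar use went from 4 falls and 9 rises to 6 falls and 4 rises. Matrix genes went from 9 falls and 10 rises to 5 falls and 16 rises. For no gene of these lists was the difference between the treatments called by edgeR.

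**Figure D4:**
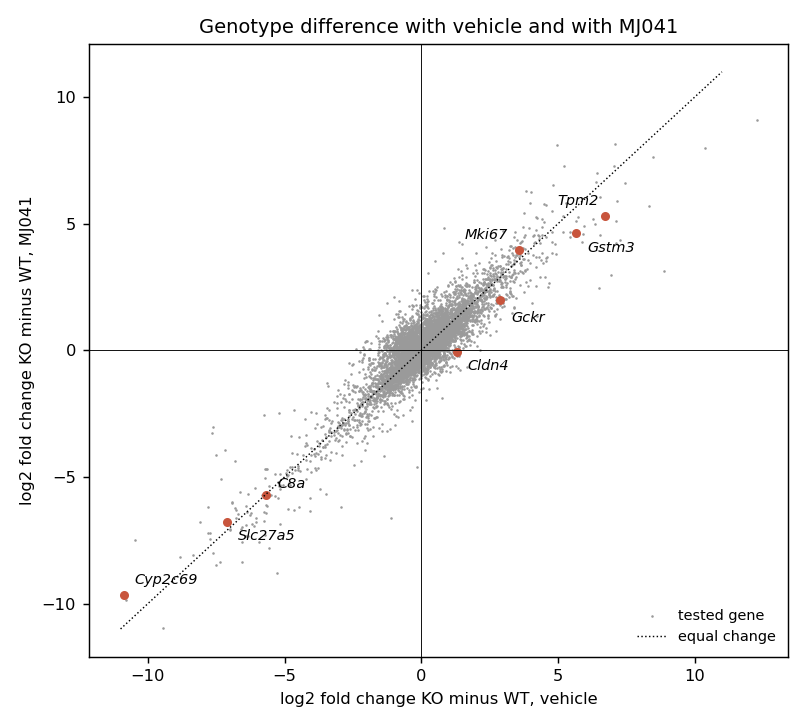
Log2 fold change KO minus WT with MJ041 (vertical) against that with vehicle (horizontal) for the 14919 tested genes, one grey point each, with named genes in red and a dotted line of equal change. Most genes lie along the line from Cyp2c69 at the lower left to Tpm2 at the upper right.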

How the data were processed

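RNA was sequenced from primary hepatocytes in 12 libraries. The deposited values are raw counts of reads per Ensembl gene. Per the labels' protocols the library kit was stranded. Per the submitters' processing notes, STAR 2.7.10b, Trimmomatic 0.34, featureCounts, FastQC and DESeq2 were used with the build mm39; strand and multimapping settings are not given in the sources used here. Genes were kept by edgeR's filterByExpr (minimum count 10) and scaled by TMM. The quasi-likelihood model of edgeR 4.0.16 (R 4.3.3) held the 4 groups and all 12 libraries, which left 8 residual degrees of freedom. It was tried on simulated counts in which only a small part of the genes was changed. Such counts cannot check the scaling or the error rate where 54.5% of genes are called. Alternatives used limma 3.58.1 (voom), DESeq2 1.42.0, other scalings, filters and thresholds, a replicate block and each library left out. Adjusted p-values are Benjamini-Hochberg over 14919 genes, with a threshold of 0.05. Standard errors (SE) were obtained from each log2 fold change and its F statistic. Symbols were found for 14885 tested genes. Lists are described by their called members, without a set test.

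The members and lists were chosen with earlier results of these data known. The text names Hnf4a, the key members of each list, the 10 largest rises and falls with at least 100 CPM and no overlap, up to 3 more called members of each list with at least 20 CPM, and, for each genotype, the gene with most counts among those at 0 in the other. Replicates were compared by their counts, and every vehicle pair differed beyond sampling noise (chi-square over its degrees of freedom, 5.12 to 14.7). Promoters come from RefSeq, build GRCm38.p6. No mm39 genome was used here. A few genes of the lists are not reported here.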

Additional observations from a re-analysis of the deposited data

How the results depend on the processing

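No gene called in the vehicle comparison was called in the opposite direction under any scaling, filter, tool or left-out library. Changes of sign without a call were not counted, and housekeeping scaling kept 6707 of the 8126 calls. Of 2265 genes called at 2-fold or more, between 2119 and 2263 of those tested stayed called under each setting that tested them all. Scaling to housekeeping genes gave 2690 rises, and a minimum count of 50 left 1495 calls of 2-fold or more because fewer genes were tested. The plasma protein share, KO over WT, was 0.88, 0.961 without the 10 most abundant genes and 1.14 without Alb, an alternative added after the data were seen. The HNF4-type share was 2.74% with genes at least 2-fold lower. For the difference between treatments, DESeq2 gave 214 calls and the fit without a low-count filter 886, alternatives added after the data were seen. Among 194 tested genes named, 174 kept their side of the threshold throughout.

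The median of 19 of 53 lists changed sign under some setting. The 8 whose medians exceed their spread between libraries come first. With housekeeping scaling they were -0.057 for nuclear receptors, -0.077 for mitochondrially encoded genes, -0.11 for peroxisome genes and -0.075 for the housekeeping list itself. With a minimum count of 50 they were -0.12 for liver transcription factors and 0.58 for stellate markers, and with upper-quartile scaling 0.0045 for YAP targets. Leaving out 1 library gave -0.48 to 0.10 for gut and pancreas genes, -0.046 to 0.15 for mitochondrially encoded genes, -0.0011 to 0.094 for peroxisome genes and -0.31 to 0.0093 for stellate markers. Among the other 11, with medians within that spread, a minimum count of 50 gave -0.075 for complement and 0.26 for bile acid genes. The causes were not tested.

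Replicate numbers are shared by the genotypes, but deviations of same-numbered WT and KO vehicle libraries correlated at 0.158, -0.051 and 0.092. The numbers were therefore not treated as pairs. With the replicate block, 4188 genes rose and 4130 fell, and 8019 of the 8126 calls were kept. Depth limits what can be said of genes with few counts: of the 1735 genes under 1 CPM, 30.0% were called, against 68.0% from 100 to 1000 CPM.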
